A study of Mus musculus with 2 samples.

Results

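The genes described here are 34 genes of the mitotic spindle and of the checkpoint that guards it, taken as a fixed list of symbols and matched to the probe sets whose annotation gave that symbol alone. Of the 34 listed genes, 33 had at least 1 such probe set, among 18193 genes on the array, and together they had 78 probe sets. Ccnb1, the cyclin B1 gene, had no probe set of its own in the annotation used and was not analysed here. RNA came from 2 primary cultures of newborn C57BL/6 epidermal keratinocytes, each hybridised to 1 Affymetrix array, with no replicates. The first culture came from K5Cre+;MED1flox/flox mice, called MED1epi-/- and labelled as keratinocyte-specific MED1 null. The second, the control, was titled MED1flox/flox and described as wild-type. MED1 belongs to the Mediator complex, through which transcription factors act on RNA polymerase II. Cre was driven by the keratin 5 promoter, which is active in basal keratinocytes, so cell lineages that never used this promoter keep the floxed alleles. The labels do not state how many pups each culture pooled.

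A cell enters mitosis when CDK1, bound to cyclin B, phosphorylates its many substrates. Chromosomes then condense, the kinetochores assembled on their centromeres capture spindle microtubules, and the spindle checkpoint withholds anaphase until every kinetochore is attached. The anaphase-promoting complex ends the block by marking cyclin B and securin for destruction. In normal epidermis division takes place mainly among basal keratinocytes, and transcripts of this group accumulate in G2 and mitosis. MKI67 is a proliferation marker in skin pathology.

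Several features of the 2 arrays bear on each value below. Med1 itself read 1039 on the array labelled MED1-null and 462.7 on the control array, 2.24-fold higher, and all 7 of its probe sets were higher there. The labels do not state which part of the gene was deleted, so a probe set outside that part would check nothing, and the first array is called by its label throughout. The cultures also differed in sex-linked transcripts, with Xist at 55.7 and the Y-linked Eif2s3y at 2164 on the array labelled MED1-null, against 5461 and 4.2 on the control array, a pair picked with those values in view. The 3′ over 5′ signal ratio, a sign of RNA integrity, was 0.767 for Gapdh, 1.14 for beta-actin and 2.37 for the transferrin receptor on the array labelled MED1-null, against 0.762, 1.13 and 1.76 on the control array. The part of these differences in the results was not tested. Signals are on the linear MAS5 scale, in arbitrary units, and a signal is compared between arrays and never between genes. Values under 67.7, the median signal of all probe sets, were raised to that floor. Ratios are of the array labelled MED1-null over the control array, and each gene is given by its probe set with the highest signal. With 1 array per group there was no test, and precision is limited by that number. Probe sets of the same gene gave the sole measure of spread, a pooled SD of 0.31 on the log2 scale over 4916 genes. It was taken within the same 2 arrays and leaves out variation between cultures or animals.

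All 33 genes with a probe set were at or above the floor on both arrays, and most had a higher signal on the array labelled MED1-null. The log2 ratio was above 0 for 28 of 33 genes and below 0 for 5, against 57.1% above and 42.9% below among the 11621 measured genes (those above the floor on at least 1 array). The median log2 ratio of the 33 genes was 0.24 (1.18-fold), beside 0.06 over all measured genes, and the ratios ran from -0.57 to 0.88. None of the 33 reached 2-fold in either direction, where the shares of all measured genes were 1.63% higher and 2.23% lower. A second threshold of 1.5-fold was added because an earlier account of these data showed no member at 2-fold. At 1.5-fold, 11 of 33 (33.3%) were higher and none lower, against 7.8% and 7.32% of all measured genes. After rescaling to the median ratio, by quantiles or with a lowess curve, the genes above 0 numbered 22, 25 and 22 of 33, beside 49.5%, 52.6% and 51.0% of all measured genes. Those at least 1.5-fold higher numbered 8, 8 and 7, beside 6.34%, 6.1% and 5.73% of all, and those at least 1.5-fold lower 1, 2 and 2, beside 8.56%, 8.48% and 8.87% of all. Ccnb2 and Kif11 lost the 1.5-fold call under all 3 rescalings, Mad2l1 under the median ratio and lowess, and Ndc80 under quantiles and lowess. The same rescalings took the share of higher genes among all genes beyond 2-fold to 34.5%, 33.6% and 31.3%, against 42.3% as deposited, and among those beyond 1.5-fold to 42.6%, 41.8% and 39.3%, against 51.6%. In a bulk culture, a larger share of dividing cells and more RNA per dividing cell cannot be told apart.

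**Figure D1:**
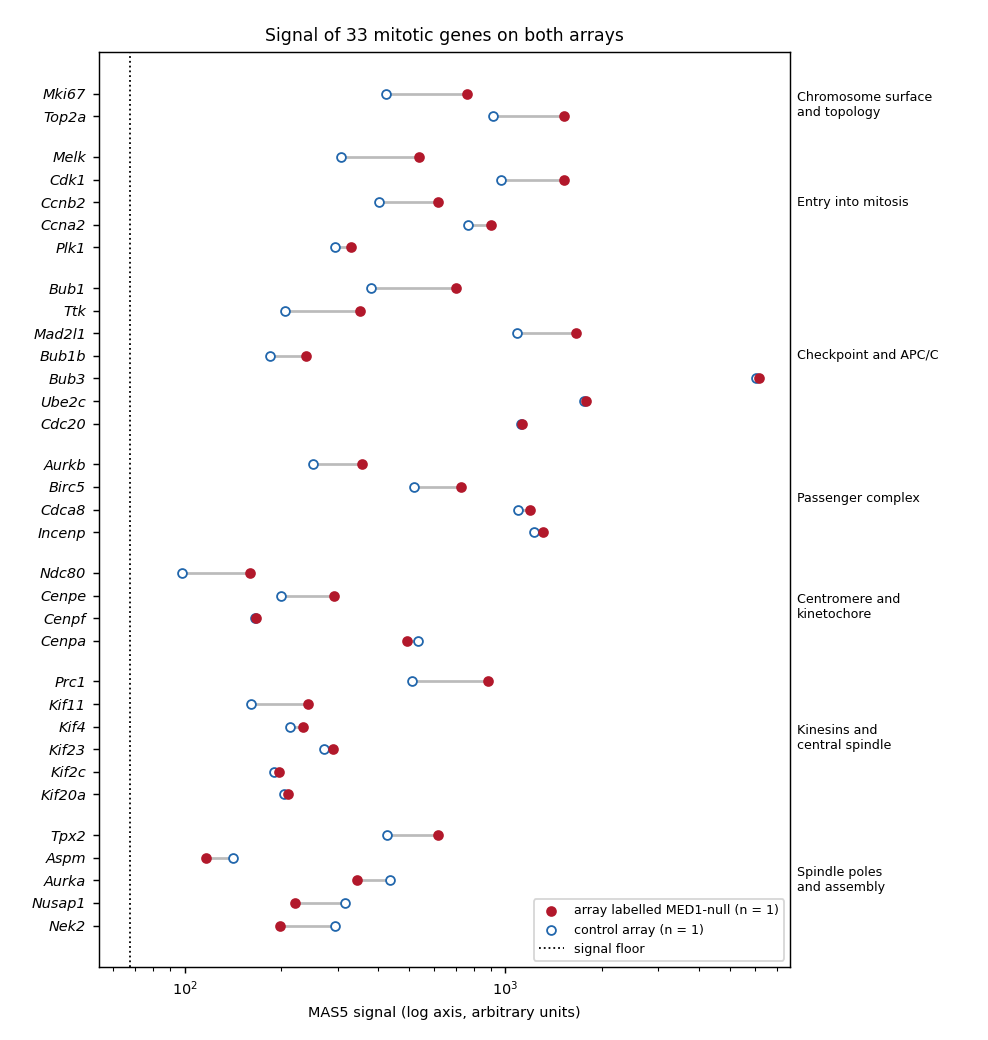
MAS5 signal (log axis, arbitrary units) of 33 mitotic genes, grouped by role, on the array labelled MED1-null (filled red) and the control array (open blue), 1 array each. The dotted line is the signal floor of 67.7. The red point lies to the right for 28 genes (22 to 25 after rescaling) and to the left for 5, of which Nek2, Nusap1, Aurka and Aspm belong to the spindle poles and spindle assembly.

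The promoters of several of these genes are shown before their values, since many of the genes hold sequence features that the symbol list did not use. Transcription of G2 and mitotic genes is known to be timed by the cell cycle genes homology region (CHR), which the MuvB subunit LIN54 binds, together with CCAAT boxes bound by NF-Y. The promoter table holds 29 of the 34 genes. Tpx2, Ccna2, Aurkb, Incenp and Kif20a have no entry. Each sequence below is the 250 bases before the annotated start, from RefSeq on build GRCm38.p6, written 5′ to 3′ in the direction of the gene. Capitals mark matches to the CHR (TTTGAA or TTCGAA), the CCAAT box (CCAAT) and an E2F site (GCGGGAA or GCGCGAA), searched on both strands. The first 4 are examples of genes with a higher signal on the array labelled MED1-null, the next 2 of genes with nearly equal signals, and the last 2 of genes with a lower signal. They were chosen after their values were seen.
Mki67, chr7:135716380-135716629, reverse strand: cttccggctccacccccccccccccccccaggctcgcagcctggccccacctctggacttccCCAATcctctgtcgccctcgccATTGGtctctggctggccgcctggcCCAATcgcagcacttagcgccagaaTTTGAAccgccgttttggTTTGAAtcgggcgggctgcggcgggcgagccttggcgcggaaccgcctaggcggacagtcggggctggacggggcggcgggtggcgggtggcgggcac
Top2a, chr11:99024190-99024439, reverse strand: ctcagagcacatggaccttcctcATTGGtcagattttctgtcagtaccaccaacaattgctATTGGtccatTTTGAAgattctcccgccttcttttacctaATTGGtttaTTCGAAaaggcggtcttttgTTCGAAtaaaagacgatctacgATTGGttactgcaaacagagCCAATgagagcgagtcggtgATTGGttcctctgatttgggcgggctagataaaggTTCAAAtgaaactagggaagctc
Cdk1, chr10:69352913-69353162, reverse strand: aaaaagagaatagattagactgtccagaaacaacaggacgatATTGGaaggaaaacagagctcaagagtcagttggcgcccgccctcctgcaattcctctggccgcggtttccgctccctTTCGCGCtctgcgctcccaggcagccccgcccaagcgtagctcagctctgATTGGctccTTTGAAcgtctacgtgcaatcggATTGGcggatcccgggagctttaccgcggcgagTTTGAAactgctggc
Bub1, chr2:127831860-127832109, reverse strand: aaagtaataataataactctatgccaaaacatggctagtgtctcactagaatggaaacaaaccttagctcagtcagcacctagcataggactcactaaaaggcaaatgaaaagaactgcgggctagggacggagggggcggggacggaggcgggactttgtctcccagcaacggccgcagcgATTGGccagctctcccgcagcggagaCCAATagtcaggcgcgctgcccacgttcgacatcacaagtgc
Ube2c, chr2:164769679-164769928, forward strand: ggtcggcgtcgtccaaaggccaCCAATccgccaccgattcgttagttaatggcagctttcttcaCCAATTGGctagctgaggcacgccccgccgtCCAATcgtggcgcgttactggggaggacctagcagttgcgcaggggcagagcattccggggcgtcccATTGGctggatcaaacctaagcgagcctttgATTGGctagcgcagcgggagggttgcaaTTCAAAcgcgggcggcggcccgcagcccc
Cdc20, chr4:118437344-118437593, reverse strand: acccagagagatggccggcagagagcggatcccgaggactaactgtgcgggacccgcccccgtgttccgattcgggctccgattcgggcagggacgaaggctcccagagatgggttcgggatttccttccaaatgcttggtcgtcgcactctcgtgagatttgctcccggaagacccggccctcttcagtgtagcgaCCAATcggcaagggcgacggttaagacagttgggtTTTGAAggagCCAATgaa
Aurka, chr2:172370571-172370820, reverse strand: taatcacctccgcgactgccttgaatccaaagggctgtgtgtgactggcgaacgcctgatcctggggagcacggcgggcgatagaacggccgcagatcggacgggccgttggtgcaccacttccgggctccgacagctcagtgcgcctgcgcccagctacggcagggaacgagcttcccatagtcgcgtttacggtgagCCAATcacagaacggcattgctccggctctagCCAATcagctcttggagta
Nek2, chr1:191821223-191821472, forward strand: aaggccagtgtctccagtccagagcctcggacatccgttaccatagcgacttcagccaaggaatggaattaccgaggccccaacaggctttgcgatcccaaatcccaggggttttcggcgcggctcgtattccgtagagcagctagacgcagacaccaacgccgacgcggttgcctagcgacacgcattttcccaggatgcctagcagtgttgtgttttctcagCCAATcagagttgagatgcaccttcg

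A CCAAT box lay in 23 of the 29 promoters (79.3%), against 36.2% of 9416 measured genes with an entry and 34.5% of all 27025 genes in the table. A CHR match lay in 10 of 29 (34.5%), against 11.9% of the measured genes and 17.4% of all genes, and 9 of 29 held both, against 4.53% of the measured genes. A window of the last 60 bases before the start was not planned in advance. In it, 6 of 29 (20.7%) had a CHR match, against 1.87% of the measured genes. CCAAT boxes that began 31 to 34 bases apart, a spacing chosen after the matches were seen, stood in 6 of 29 promoters (Ccnb1, Ccnb2, Cdk1, Ube2c, Cdca8 and Aurka), against 2.1% of the measured genes. Matches on opposite strands can overlap, as at 1 place in the Ube2c promoter. The E2F site was found in Cdk1 alone of the 29, with 9.36% among measured genes. None of the motifs lay in 5 of 29 promoters (17.2%), against 50.9% of the measured genes. A match in these letters is a description and not a bound site.

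The matches did not order the genes by ratio in a simple way. Among the 28 genes with both an entry and a value, the 10 with a CHR match had log2 ratios from 0.01 to 0.84 with a median of 0.48. None of these was below 0 as deposited, but 4 of them (Cdc20, Bub3, Ube2c and Kif2c) were at 0.01 to 0.04, and all 4 turned below 0 under the median rescaling, Kif2c under quantiles, and Cdc20, Ube2c and Kif2c under lowess. The 18 without one ran from -0.57 to 0.88 with a median of 0.15, and 5 were below 0. CCAAT boxes showed the opposite order, with a median of 0.15 for the 22 genes that had one and 0.55 for the 6 that had none. Top2a, with 4 CHR matches and 6 CCAAT boxes, and Ube2c, with 1 and 6, had log2 ratios of 0.73 and 0.02, while Bub1, Melk, Prc1 and Ttk had no CHR match in this window. These are descriptions over a few genes of 2 arrays, with no test.

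**Figure D2:**
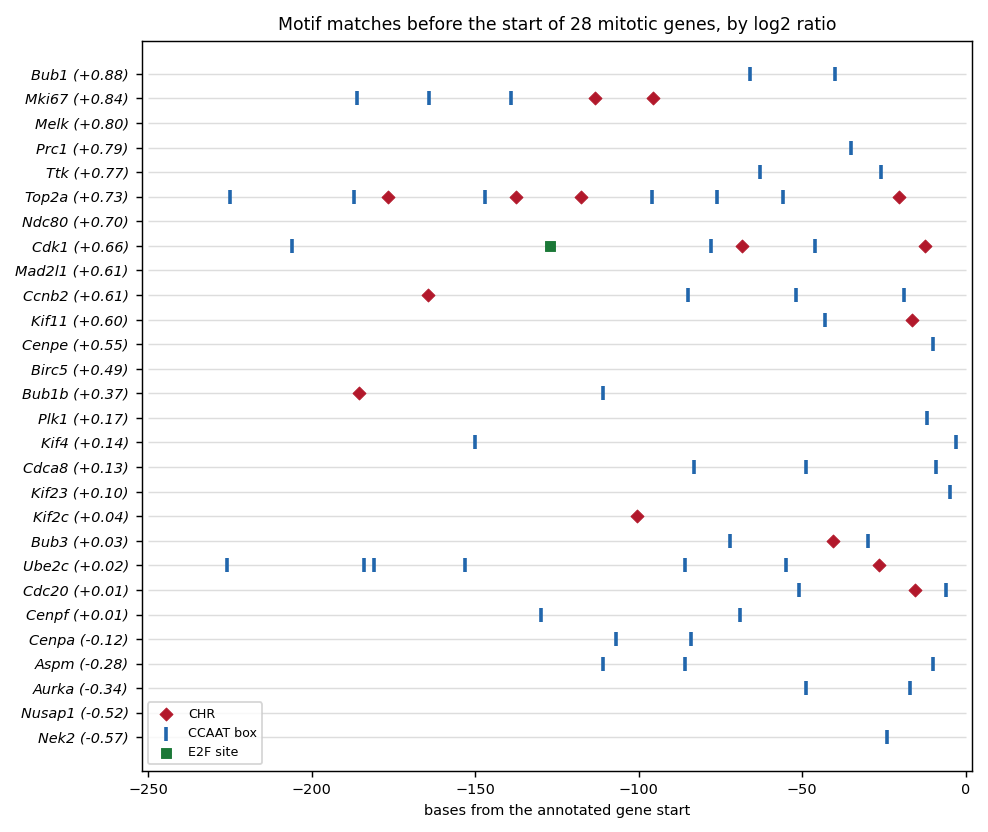
Positions of CHR (red diamonds), CCAAT box (blue bars) and E2F site (green square) matches in the 250 bases before the annotated start of 28 mitotic genes, ordered from the highest to the lowest log2 ratio (in brackets) of the array labelled MED1-null over the control array. The 10 genes with a CHR match have ratios above 0 as deposited, but Cdc20, Bub3, Ube2c and Kif2c lie at 0.01 to 0.04 and turn below 0 with the median ratio set to 1. CCAAT boxes occur along the whole order.

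Genes of the mitotic chromosome itself stood among the highest ratios. Mki67, whose protein coats mitotic chromosomes and keeps them apart, read 758.2 on the array labelled MED1-null and 424.3 on the control array, 1.79-fold higher. Top2a, the topoisomerase that untangles sister DNA, read 1520 on the array labelled MED1-null and 914.3 on the control array, 1.66-fold higher. Both genes were past 1.5-fold. A second Top2a probe set, at 111.2 on the array labelled MED1-null and 73.7 on the control array, gave a log2 ratio of 0.59 beside 0.73 for the one used.

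All 5 measured genes of the cyclin B and CDK1 group had ratios above 0, with a median log2 ratio of 0.61. Melk, a kinase transcribed with the mitotic genes, read 537.1 on the array labelled MED1-null and 307.7 on the control array, 1.75-fold higher. Cdk1, the kinase that drives entry into mitosis, read 1528 on the array labelled MED1-null, against 966.7 on the control array, 1.58-fold higher. Its cyclin partner Ccnb2 was at 618.2, against 404.5 in the control, 1.53-fold higher, but 0.52 to 0.55 on the log2 scale after rescaling, short of 1.5-fold. The other 2 genes of the group differed less. Ccna2, the cyclin of S phase and early mitosis, was at 900.9 on the array labelled MED1-null and 762.3 on the control array by the probe set with the highest signal (log2 ratio 0.24). Its second probe set read 567.5 on the array labelled MED1-null and 387.9 on the control array (0.55). Plk1, a kinase of centrosome maturation and mitotic entry, was at 330.0 on the array labelled MED1-null and 294.0 on the control array, 1.12-fold higher and within the spread between probe sets.

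The 7 spindle checkpoint and anaphase genes had log2 ratios from 0.01 to 0.88, with a median of 0.37. Bub1, Ttk and Mad2l1 had the highest, Bub1b lay between, and Bub3, Ube2c and Cdc20 were close to even. Bub1, a kinase that recruits checkpoint proteins to the kinetochore, had the highest ratio of all 33 genes, at 700.4 on the array labelled MED1-null and 380.1 on the control array (1.84-fold). Ttk, the MPS1 kinase that starts checkpoint signalling, read 352.5 on the array labelled MED1-null and 206.3 on the control array (1.71-fold). Mad2l1, the MAD2 protein that sequesters CDC20, read 1662 on the array labelled MED1-null and 1087 on the control array (1.53-fold). All 3 were past 1.5-fold as deposited, Mad2l1 narrowly (0.55 and 0.58 under the median and lowess rescalings, short of it). A dim second probe set of Bub1 read 89.1 on the array labelled MED1-null and 32.0, below the floor, on the control array. Its log2 ratio of 0.40 is therefore a lower bound. Bub1b, the pseudokinase BUBR1 of the same inhibitory complex, was at 238.8 on the array labelled MED1-null, against 185.2 in the control (1.29-fold), and its second probe set gave a log2 ratio of 0.08.

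Cdc20, the activator of the anaphase-promoting complex that the checkpoint holds back, read 1124 on the array labelled MED1-null and 1116 on the control array by the probe set used (log2 ratio 0.01). Its other probe set above the floor read 723.7 on the array labelled MED1-null and 776.9 on the control array (-0.10). Ube2c, the ubiquitin-conjugating enzyme of that complex, read 1783 on the array labelled MED1-null and 1763 on the control array. Neither differed by more than the spread between probe sets. Bub3, which loads BUB1 and BUBR1 onto kinetochores, was at 6170 on the array labelled MED1-null and 6056 on the control array, but its 4 probe sets that reached the floor had log2 ratios from 0.03 to 0.67. The second Bub3 probe set by signal gave 902.2 on the array labelled MED1-null and 687.4 on the control array. Under the median and lowess rescalings Cdc20 and Ube2c, and under the median rescaling Bub3, turned to ratios below 0.

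The chromosomal passenger complex corrects faulty attachments and later organises the cleavage plane, and all 4 of its genes were above 0, by less than 1.5-fold. Aurkb, its kinase, read 356.0 on the array labelled MED1-null and 251.3 on the control array (1.42-fold), and a second probe set gave a log2 ratio of 0.35. Birc5, the survivin subunit, read 726.3 on the array labelled MED1-null and 517.2 on the control array (1.40-fold). Cdca8, the borealin subunit, depended on the probe set. The one with the highest signal read 1197 on the array labelled MED1-null and 1097 on the control array, a log2 ratio of 0.13. The next read 1142 on the array labelled MED1-null and 692.1 on the control array, a log2 ratio of 0.72. Incenp, the scaffold, was at 1309 on the array labelled MED1-null and 1228 on the control array, with 3 probe sets from 0.04 to 0.22.

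Among centromere and kinetochore genes, ratios ranged widely. Ndc80, which binds microtubules at the outer kinetochore, read 160.3 on the array labelled MED1-null and 98.5 on the control array (1.63-fold), with a log2 ratio just short of 1.5-fold under quantiles (0.58) and lowess (0.57). The other genes of its complex went the same way, with Nuf2 at 322.4 on the array labelled MED1-null, against 145.1 in the control (2.22-fold), and Spc24 and Spc25 at log2 ratios of 0.74 and 0.74. Spc24 and Spc25 were named after their values were seen. Cenpe, the kinesin that moves chromosomes to the metaphase plate, read 291.9 on the array labelled MED1-null and 199.5 on the control array (1.46-fold). Cenpf, a large protein of the outer kinetochore, was even at 166.9 on the array labelled MED1-null and 166.3 on the control array. Cenpa, the histone H3 variant that marks the centromere, read 493.1 on the array labelled MED1-null and 535.6 on the control array (log2 ratio -0.12), and a dimmer probe set read 111.6 on the array labelled MED1-null and 87.6 on the control array (0.35). The ratio of Cenpa was above 0 when its probe sets were averaged, and that of Cenpf was below 0 under all 3 rescalings.

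The kinesins and the central spindle gene Prc1 were above 0 in all 6 cases as deposited, and Prc1 and Kif11 passed 1.5-fold. Prc1, which bundles antiparallel microtubules between the separating chromosomes, read 880.6 on the array labelled MED1-null and 509.7 on the control array (1.73-fold). Its second probe set read 775.4 on the array labelled MED1-null and 542.1 on the control array (log2 ratio 0.52). Kif11, the kinesin that pushes spindle poles apart, read 242.9 on the array labelled MED1-null and 160.8 on the control array (1.51-fold), and all 3 of its probe sets lay between 0.42 and 0.60. Its ratio was short of 1.5-fold under the rescalings, at 0.53, 0.50 and 0.47. The remaining kinesins were close to even. Kif4, a chromosome-borne kinesin, was at 234.2 on the array labelled MED1-null and 212.6 on the control array (1.10-fold). Kif23, the kinesin of the cytokinetic midbody, was at 291.0 on the array labelled MED1-null, against 271.2 in the control (1.07-fold). Kif20a, which works at the central spindle, was at 209.5 on the array labelled MED1-null and 203.4 on the control array (1.03-fold). Kif2c, a microtubule-depolymerising kinesin, was at 196.5 on the array labelled MED1-null and 190.5 on the control array, and its 3 probe sets ran from -0.08 to 0.59. Under all 3 rescalings Kif20a and Kif2c, and under lowess Kif23, had ratios below 0.

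Spindle pole and assembly members were the exception among the roles, with 4 of 5 below 0 and a median log2 ratio of -0.34. A list of other spindle, kinesin and cytokinesis genes lay mostly above 0, with 25 of 29 above and 4 below. The median of that list was 0.36. Nek2, the centrosome kinase that separates the spindle poles, read 198.7 on the array labelled MED1-null and 294.2 on the control array (log2 ratio -0.57), the lowest ratio of the 33 genes. Its probe sets disagreed, and without suffixed probe sets its ratio was above 0. The other one above the floor read 145.9 on the array labelled MED1-null and 138.2 on the control array (0.08). Nusap1, a microtubule-bundling protein, read 221.2 on the array labelled MED1-null and 317.2 on the control array (log2 ratio -0.52). Aurka, the kinase of centrosome maturation and spindle assembly, read 344.6 on the array labelled MED1-null and 435.6 on the control array (log2 ratio -0.34). Aspm, which focuses the spindle poles, read 116.5 on the array labelled MED1-null and 141.4 on the control array (log2 ratio -0.28), and its other 4 probe sets, all below the floor, went the other way. The brightest of these read 60.4 on the array labelled MED1-null and 52.0 on the control array. Nusap1, Aurka and Aspm were each measured by a single probe set above the floor. These 3 kept a ratio below 0 under all of the alternatives that gave a value, although with a floor of 434.6 Aurka was at -0.003. At that floor Aurka and Tpx2 were the group's measured genes, and its median was 0.25. Tpx2 went the other way. This microtubule nucleation factor, which activates the AURKA protein, read 617.7 on the array labelled MED1-null and 428.2 on the control array (1.44-fold), and its 4 probe sets lay between 0.53 and 0.88.

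**Figure D3:**
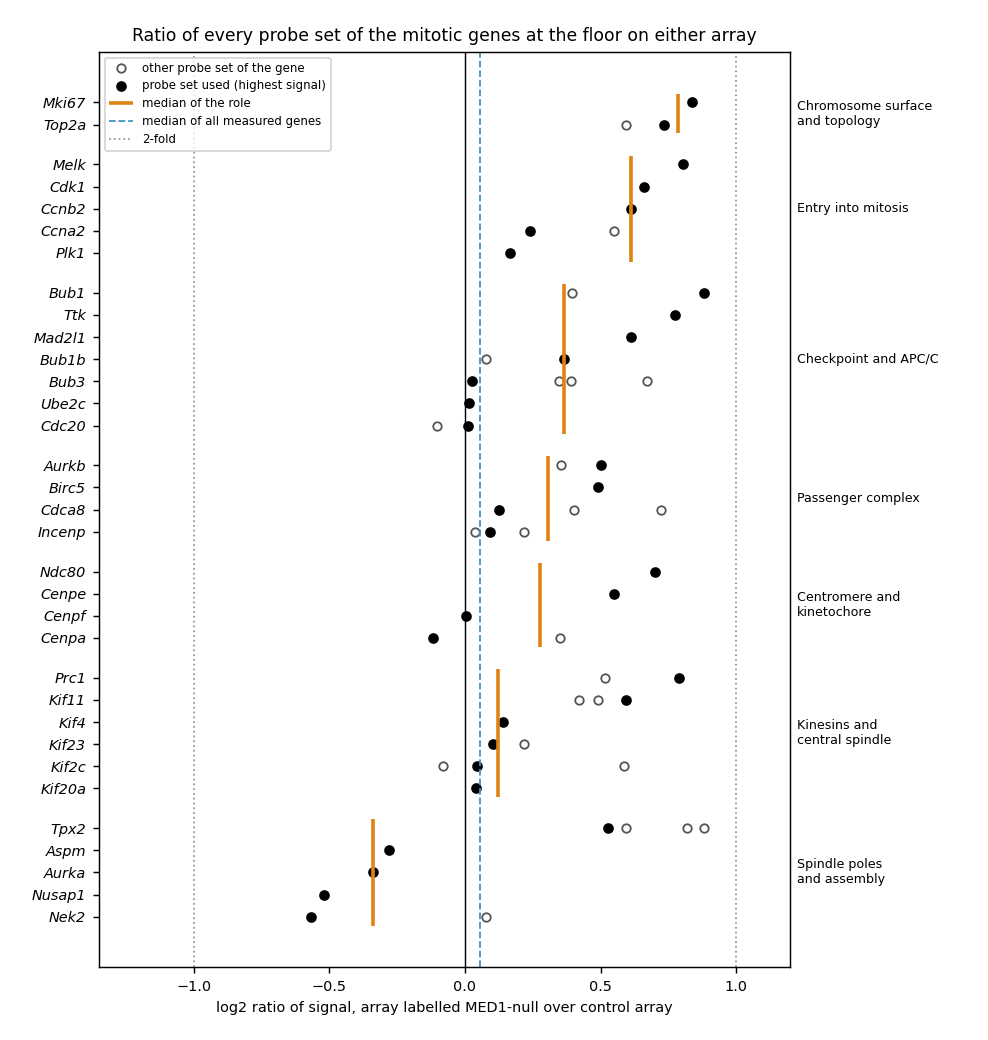
Log2 ratio of the array labelled MED1-null over the control array for each of the 57 probe sets of the mitotic genes above the floor on at least 1 array. Filled points are the probe sets used, open points the others, orange bars the median of each role and the dashed line the median of all measured genes (0.06). The spindle pole group lies below 0 with the exception of Tpx2 and a second probe set of Nek2. With the floor applied, no probe set passes the dotted 2-fold lines. Lower bounds are plotted for a Bub1 probe set (89.1 and 32.0) and for Bub3 probe sets (107.8 and 48.8, 86.0 and 42.4). The second value of each pair is the control signal, which the floor replaced. Without the floor, these points could lie past the 2-fold lines.

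Looking at probe sets rather than genes gave a similar split. Of the 57 probe sets above the floor on at least 1 array, 50 were above 0 and 7 below, 87.7% above, against 57.3% of all 21195 such probe sets with 1 gene symbol. Their median log2 ratio was 0.39, against 0.06 over all. Of the 16 genes with several such probe sets, 12 had all of them above 0, none had all below, and Cdc20, Cenpa, Kif2c and Nek2 had them on both sides. A Bub1 probe set (89.1 and 32.0) and Bub3 probe sets (107.8 and 48.8, 86.0 and 42.4) reached the floor only on the array labelled MED1-null. Their ratios are lower bounds that could fall only above 0. Bub1 counts among the 12 only through such a probe set. The probe set used carried a suffix (a, s or x) in 12 of the 33 genes. Such a suffix marks probes that can match more than 1 transcript, of the same gene or of others. Of these genes, Cdc20, Aurkb, Incenp and Kif2c had the suffix for the least specific class (x). Relative to the spread between probe sets (0.31), 16 of the 33 genes were higher by more than 1 SD, 3 were lower by more than 1 SD and 14 lay within it. Of all measured genes, 22.8% were higher and 16.6% lower by that much. This spread does not measure variation between cultures.

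Other genes of the same machinery, 122 genes in 5 lists from textbook knowledge, were examined in the same way. Of the 117 measured, 89 (76.1%) were above 0, 22 (18.8%) passed 1.5-fold upwards and none downwards, and the median log2 ratio was 0.23. Lin52, Knl1 and Cenpp, named after their values were seen, reached the floor only on the array labelled MED1-null. Their ratios are lower bounds that could fall only above 0. Among all measured genes, 57.1% were above 0, and 7.8% and 7.32% passed 1.5-fold upwards and downwards. The shares of all measured genes at least 2-fold higher and lower were 1.63% and 2.23%. Among the 117, 7 genes were at least 2-fold higher and none lower. Besides Nuf2, these included Ncapg2, a condensin II subunit, at 1306 on the array labelled MED1-null and 549.3 on the control array (2.38-fold). Pttg1, which encodes securin, was at 3158 on the array labelled MED1-null and 1388 on the control array (2.28-fold). Cdca5, the sororin that holds sister chromatids together, was 2.10-fold higher, and Fbxo5, the EMI1 inhibitor of the anaphase-promoting complex, 2.03-fold higher. Cenpn, at 706.7 on the array labelled MED1-null and 330.6 on the control array, and Cenph, at 302.9 on the array labelled MED1-null and 141.8 on the control array, both of the inner kinetochore, were each 2.14-fold higher. The 3 probe sets of Pttg1 ran from 0.07 to 1.19.

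By list, the shares above 0 stand beside 57.1% of all measured genes. Other kinetochore and checkpoint genes had 23 of 31 above 0 (74.2%, median 0.32), and Trip13, which remodels MAD2, was 1.80-fold higher. Of 29 other spindle, kinesin and cytokinesis genes, 25 were above 0 (86.2%, median 0.36). Among them Anln, the scaffold of the cleavage furrow, read 2390 on the array labelled MED1-null and 1195 on the control array (just under 2-fold), the minus-end kinesin Kifc1 was 1.94-fold higher and the spindle protein Spag5 1.87-fold. Condensin, cohesin and separase genes had 17 of 22 above 0 (77.3%) and a median of 0.22. Ncapg was at 1.88-fold (probe sets at 0.91 and 0.37). Subunits and regulators of the anaphase-promoting complex had 12 of 17 above 0 (70.6%) and a median of 0.15. Anapc10 was at 1.35-fold (probe sets at 0.44 and 0.10). Of 18 CDK1 regulators and mitotic transcription factors, 12 were above 0 (66.7%, median 0.15). The phosphatase Cdc25a was 1.73-fold higher by one probe set and even by the other (log2 ratios 0.79 and 0.02), Ccnf was 1.41-fold higher by one probe set and nearly even by the other (0.50 and 0.09), the inhibitory kinase Wee1 1.34-fold higher, and the MuvB subunit Lin37 was at 339.1 on the array labelled MED1-null and 457.6 on the control array (-0.43).

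**Figure D4:**
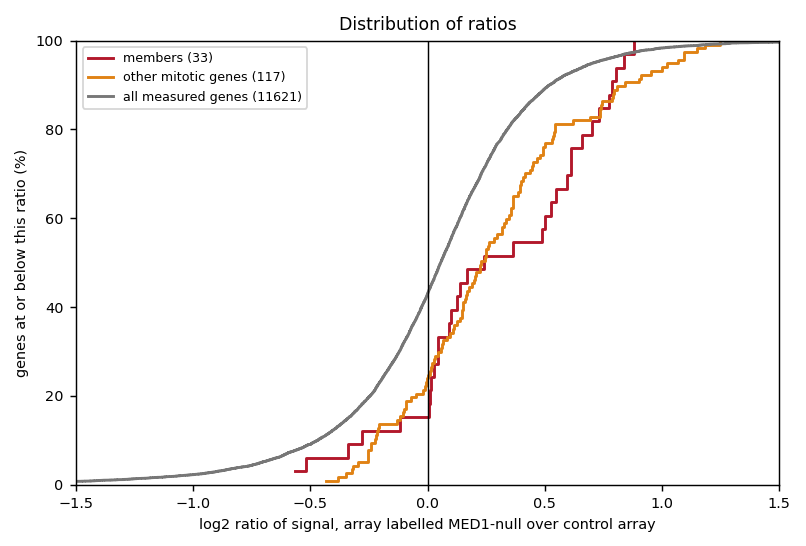
Share of genes (%) at or below each log2 ratio of the array labelled MED1-null over the control array, for the 33 members, 117 other mitotic genes and all 11621 measured genes. Both mitotic curves lie to the right of the curve of all genes over most of the range, and Bub1b alone of the members lies between 0.24, their median, and 0.49.

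DNA replication genes, which act earlier in the cycle, had a higher median than the mitotic genes by the probe set with the highest signal. Of 34 measured, 31 (91.2%) were above 0, against 57.1% of all measured genes, with a median log2 ratio of 0.44. Tyms, named after its value was seen, reached the floor only on the array labelled MED1-null, so its ratio above 0 is a bound. This list was not computed under the other processings, under which the members' median reached 0.40. Tk1, thymidine kinase, was 2.30-fold and Orc6, an origin recognition subunit, 2.45-fold higher, Ccne2 was 1.80-fold higher, and Fen1 was at 1390 on the array labelled MED1-null and 2518 on the control array with probe sets on both sides of 0. Of 6 measured CDK inhibitor genes, 4 were below 0, against 42.9% of all measured genes, with a median of -0.18. Cdkn2b was at 116.9 on the array labelled MED1-null and 172.1 on the control array, and Cdkn2c at 513.2 on the array labelled MED1-null and 362.8 on the control array. Cdkn1b and Cdkn2d had log2 ratios of -0.43 and -0.34. The remaining gene below 0, Cdkn1a, was close to even (-0.02) and was named after its value was seen.

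Markers were used to check the cell type. Krt5, the keratin of basal keratinocytes, read 32220 on the array labelled MED1-null and 26821 on the control array. Other marker lists differed between the arrays along with the mitotic genes. Among all measured genes, 57.1% had ratios above 0 and 42.9% below. The 7 measured of 8 basal keratinocyte markers summed to 138857 on the array labelled MED1-null and 113603 on the control array, with log2 ratios from 0.10 to 0.59 and Krt15 below the floor on both arrays. The 7 measured of 8 suprabasal markers summed to 9842 on the array labelled MED1-null and 5628 on the control array, with all 7 above 0 and Krt1 below the floor on both. Melanocyte markers, 8 of 8 measured, summed to 19507 on the array labelled MED1-null and 25056 on the control array, with 6 below 0 and Kit 2.99-fold lower. Fibroblast markers, 7 of 10 measured, summed to 503.8 on the array labelled MED1-null and 825.9 on the control array, with 6 below 0. Col1a1, Lum and Pdgfrb were below the floor on both. Of the 7 measured, 3 reached the floor on both arrays, so the ratios of the others are bounds. All sums were taken before the floor was applied. Of leukocyte, endothelial and Merkel cell markers, 2 of 8, 2 of 6 and 1 of 4 reached the floor on at least 1 array. On both arrays, 1, 0 and 0 did so. Their sums were 180.4, 94.3 and 80.1 on the array labelled MED1-null, against 175.9, 154.1 and 52.9 on the control array. Ptprc, Pecam1 and Krt20 did not reach the floor. The part of these differences in the mitotic ratios was not tested.

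**Figure D5:**
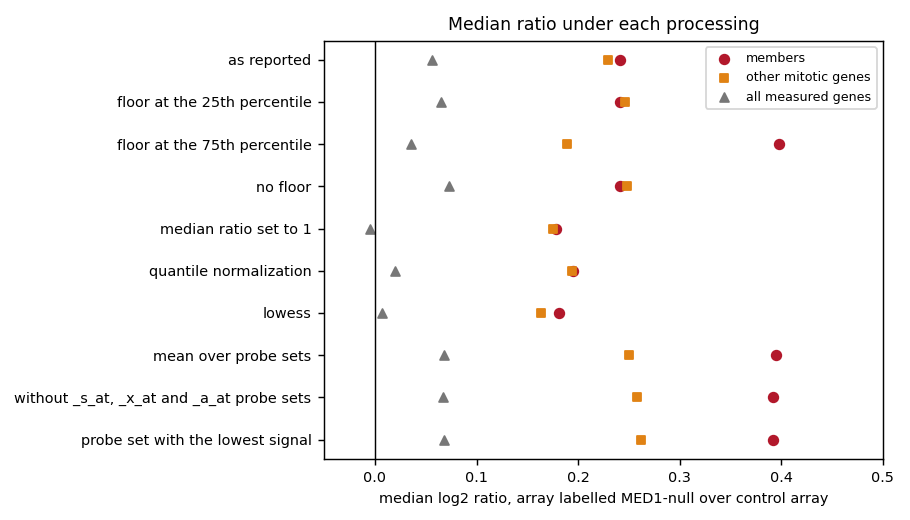
Median log2 ratio of the array labelled MED1-null over the control array under each processing, for the 33 members (circles; 18 with the floor at the 75th percentile and 29 without the suffixed probe sets), the other mitotic genes (squares) and all measured genes (triangles). The members' median stays to the right of that of all genes in each case, between 0.18 and 0.40.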

How the data were processed

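Expression was measured on Affymetrix mouse arrays, 1 per group. Each probe set has a linear signal intensity, which the authors deposited after MAS5 processing, per the submitters' processing notes. The MAS5 software version is not given in the sources used here. Of 45101 probe sets, 64 Affymetrix controls were left out, and 34945 had 1 gene symbol in GEO's platform annotation, 932 several and 9160 none. Gene names came from the first set only, and all 33 members with a probe set were found by Entrez ID in RefSeq's gene table for GRCm38.p6.

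From these values, signals under the pooled median (67.7) were raised to it, log2 was taken, and the control array was subtracted from the array labelled MED1-null. A gene was represented by its probe set of highest mean signal (18193 genes), and 11621 genes reached the floor on either array. Thresholds were 2-fold and 1.5-fold, the second added with earlier results of these data known. With 1 array per group no test was run. Named genes were all members, Med1 and the RNA checks, and from each other list up to 4 genes with the ratio farthest from 0, with exceptions marked as chosen after their values were seen. Spindle and checkpoint members, roles and lists were chosen with earlier results of these data known. Motifs were searched in RefSeq promoters, the first entry of each gene. Alternatives were 3 other floors, 3 rescalings (median ratio, quantile, and lowess with a fraction of 0.3 in statsmodels 0.14.6) and 3 choices of probe set. The 2-fold counting was run on simulated data. Counts at 1.5-fold and above 0 were not tested in this way. A planned search of protein motifs was not run, since no protein sequences were used here.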

Additional observations from a re-analysis of the deposited data

How the results depend on the processing

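The direction of the members' median held under all 9 alternatives. Raising the floor to the 75th percentile (434.6) gave 0.40 and left 18 of the 33 genes. The median was 0.40 with the mean over probe sets and 0.39 without the suffixed probe sets. It was 0.39 with the probe set of lowest signal, and 0.18 to 0.24 under the others. The same floor left 16 members above 0, by its construction from fewer genes, and the count of members at least 1.5-fold higher was 6 with it and 7 under lowess, against 11. The count at least 1.5-fold lower was 1 with the median ratio set to 1, 2 under quantile normalization and 2 under lowess, against 0 as deposited. The cause of these changes was not tested. The floor set the counts over all genes: 906 genes were at least 1.5-fold higher with the floor used, 259 (3.71%) with the higher floor, 2504 (15.6%) with one at the 25th percentile and 3687 (20.3%) with none. At least 2-fold, the higher and lower genes numbered 190 and 259 with the floor used, 49 and 106 with the higher floor, 1120 and 934 with the lower one, and 2229 and 1901 with none. Other mitotic genes had medians from 0.16 to 0.26, and 2 to 10 of them were at least 2-fold higher. With the probe set of lowest signal 1 was at least 2-fold and 2 at least 1.5-fold lower. With the higher floor the centromere group's median was -0.12, from Cenpa alone, that of the kinesins and central spindle 0.79, from Prc1 alone (0.12 with the floor used), and that of the checkpoint and anaphase genes 0.03, without Bub1b and Ttk (0.37 with the floor used). Of the 33 genes, 24 kept their direction under every alternative that gave a value (21 above 0 and 3 below), and 9 did not (Cdc20, Bub3, Ube2c, Kif20a, Kif23, Kif2c, Cenpa, Cenpf and Nek2). No paired analysis was possible because each group has 1 array. Leaving out a replicate was not possible for the same reason.

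With 1 array per group, culture, animal, sex and genotype label cannot be told apart. No detection calls were used here, and signals near the floor, such as those of Ndc80 and Aspm, leave little range above it.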
